A study of Mus musculus with 18 samples.

Results

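The stretch of mouse chromosome 11 that follows *Sh3pxd2b* was examined, from the base after the end of that gene to a point within *Ranbp17* (mm9 chr11:32328174-33200000, 871.8 kb). Its members were the DpnII fragments whose midpoint lies in these coordinates, which are 2012 of the 295450 fragments of chromosome 11, with a median length of 302.5 bp. Of these, 1855 carried a count in some sample. The stretch begins 189.6 kb from the HS-38 viewpoint and ends 1061.5 kb from it, and it was cut into 18 bins of 50 kb, of which the last spans 21.8 kb. The Ensembl gene models on NCBIM37 place 10 protein-coding genes, 5 pseudogenes, 3 processed transcripts and 1 lincRNA in it. The rule uses coordinates and no measured value, though it was set with earlier results of these data known.

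NG Capture-C, in which fixed chromatin is cut with DpnII, religated and enriched for chosen viewpoint fragments, had been performed on erythroid cells of adult C57BL/6 mice. All groups shared the same source, Ter119+ cells selected from the spleens of mice given phenylhydrazine, a drug that destroys red cells and fills the spleen with their precursors. Experiment 1 compared WT with D4448, in which the CTCF sites HS+44 and HS+48 downstream of the α-globin genes are deleted. Experiment 2 compared its own WT with Dtheta1, Dtheta2 and Dt1t2, which lack the CTCF site at one θ-globin gene, at the other, or at both. Each of the 6 groups held 3 samples. The mice were made by genome editing in embryonic stem cells or zygotes, and zygosity is not stated in the labels. The files hold no expression values, so the labelled cell type could not be checked against its markers. Viewpoints were the CTCF site HS-38 at the upstream end of the locus, the enhancers R1 and R2, and, summed, the promoters Hba-1 and Hba-2. Experiment 2 held only the promoters among these.

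Cohesin is thought to enlarge chromatin loops until it meets CTCF bound to DNA in a blocking orientation, and pairs of such sites frame topologically associating domains. In erythroid cells the α-globin enhancers lie upstream of the *Hba* genes, and CTCF sites surround both. *Sh3pxd2b*, which encodes an adaptor protein of podosomes, is the first gene downstream of the locus. Beyond it lie *Ubtd2*, a ubiquitin-domain protein, *Efcab9*, a calcium sensor of the sperm CatSper channel, *Stk10*, a serine/threonine kinase abundant in lymphocytes, and *Fbxw11*, the F-box protein β-TrCP2 that selects substrates for a ubiquitin ligase. Farther on are *Gm10462*, *1700008A04Rik* (*Smim23*), the growth factor gene *Fgf18*, *Npm1* for the nucleolar protein nucleophosmin, the homeobox gene *Tlx3* and *Ranbp17*, a member of the exportin family. HS+44 and HS+48 lie between the *Hba* genes and this stretch, as do the CTCF sites HS+65 and HS+66, which D4448 keeps. The question was how far beyond *Sh3pxd2b* any change in contacts extends.

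The letters of the CTCF motif core, CCNNNAGGGGGC or CCNNNAGGTGGC, were searched on both strands of NCBIM37. The stretch held 20 matches, 11 on the plus and 9 on the minus strand, in 12 of its 18 bins, and 52.5% of all windows of 50 kb on chromosome 11 hold at least 1. The 8 matches in the bins where contacts changed in D4448 are shown, 4 on each strand, because CTCF cores lie unevenly among these bins, most of them over *Stk10* and none in bins 2 and 5. Each is written 5′ to 3′ on its own strand with the core in capitals. A match is a run of letters, and CTCF occupancy was not measured in these files.
Ubtd2, plus strand, chr11:32355444-32355473: ggacgagcgCCCTGAGGTGGCggccgcggc
Stk10 first, minus strand, chr11:32435551-32435580: tctctccagCCCGCAGGGGGCcatctttgt
Stk10 next, plus strand, chr11:32447355-32447384: aggaatgagCCTAGAGGGGGCcattctcac
Stk10 next, minus strand, chr11:32488549-32488578: tggagcccgCCACAAGGTGGCagcagccat
Stk10 next, minus strand, chr11:32489057-32489086: tcagaaaggCCTGGAGGTGGCcctctcctc
Stk10 next, plus strand, chr11:32495967-32495996: acagttccaCCAACAGGGGGCcaagtattc
Stk10 last, minus strand, chr11:32508710-32508739: gcttgtaatCCCAGAGGTGGCagacagtgg
Fbxw11, plus strand, chr11:32614394-32614423: agagaatagCCACAAGGTGGCactgttgaa

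Depth differed between the experiments and between samples. Total counts ran from 940582 to 1120609 in the WT samples of experiment 1, were 345162, 781879 and 877191 in the 3 D4448 samples, and ran from 8820 to 232346 in experiment 2, where the Dtheta1 samples held at most 22935. D4448 replicate 1 stood apart: 38.2% to 44.5% of its counts per viewpoint lay on other chromosomes, against 19.8% to 33.3% in the other samples of the experiment, and each such fragment carried 1.55 to 2.04 counts against 1.15 to 1.32. The change over the stretch, its reach, the ratios and the viewpoint differences are given with and without it. Of the fragments more than 2 Mb away that were hit from either *Hba* promoter, 60.3% to 69.3% per sample of experiment 1 were hit from both, against 2.56% to 11.4% for R1 and R2. The counts of Hba-1 and Hba-2 are thus not independent of each other, and the promoters were also tested singly.

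In D4448 the stretch drew more contacts from every viewpoint. From HS-38, it held 3.00%, 3.32% and 3.18% of the cis counts in the WT samples and 6.19%, 6.45% and 6.51% in the D4448 samples. The D4448 samples all lay above the WT samples, replicate 1 included. R1 gave 2.13%, 2.48% and 2.65% in WT and 4.07%, 4.66% and 4.36% in D4448. R2 gave 1.75%, 2.30% and 2.14% in WT and 3.11%, 3.56% and 3.33% in D4448. The summed *Hba* promoters gave 2.21%, 2.62% and 2.48% in WT and 3.80%, 4.34% and 4.26% in D4448. In none of the 4 did a D4448 sample overlap a WT sample. A higher share can mean a contact in more cells or more contacts per cell, which these bulk samples do not separate.

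**Figure D1:**
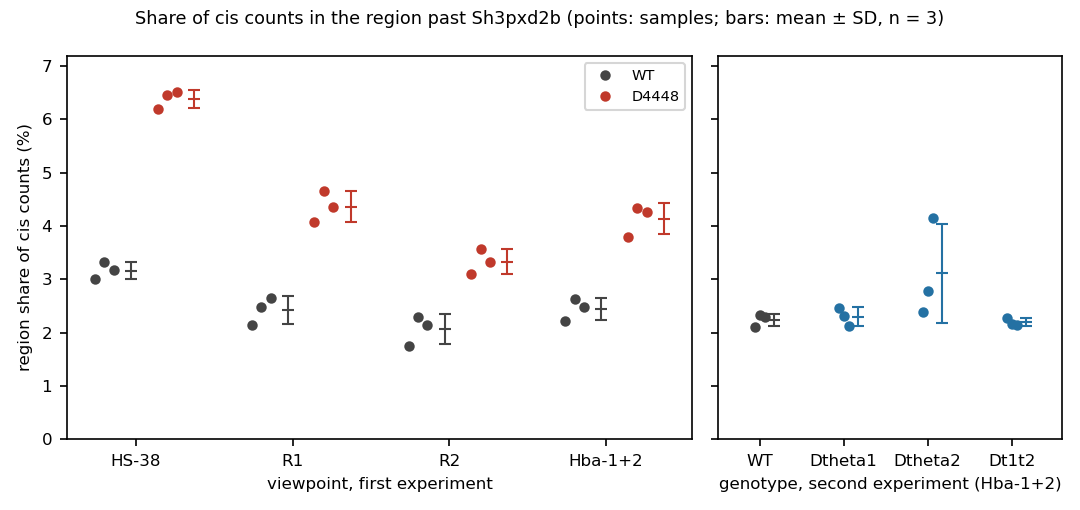
Share of each viewpoint's cis counts (percent, y axis) that fell in the stretch after *Sh3pxd2b*, the cis counts being those on chromosome 11 outside the zones left out around viewpoints. Points are samples by group (3 per group) and bars beside them are the mean ± SD. In experiment 1 the D4448 points lie above all WT points from HS-38, R1, R2 and *Hba*, and in experiment 2 the Dtheta2 points spread from 2.39% to 4.15% while Dtheta1 and Dt1t2 overlap WT.

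With the cis total as library size, the change over the whole stretch was 1.01 on the log2 scale from HS-38 (standard error 0.0688, adjusted p = 4.66e-17, quasi-likelihood test of edgeR, adjusted by Benjamini-Hochberg over 10 intervals of chromosome 11), a 2.02-fold rise. The same test gave 0.85 from R1 (adjusted p = 1.25e-09 by edgeR), 0.70 from R2 (adjusted p = 1.99e-06 by edgeR) and 0.76 from *Hba* (adjusted p = 4.09e-09 by edgeR). These are rises of 1.81, 1.62 and 1.70 times. Without D4448 replicate 1 the values were 1.03, 0.90, 0.74 and 0.82, and Hba-1 and Hba-2 tested singly gave 0.79 and 0.74. Where every fragment hit in a sample was counted once, whatever its count, the changes were 0.46, 0.37, 0.37 and 0.33, of which R1 alone passed the threshold of 0.01 (adjusted p = 0.00567, edgeR), HS-38, R2 and *Hba* giving adjusted p values of 0.0498, 0.0733 and 0.327.

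The interval that mirrors the stretch at the same distances upstream of HS-38 served as the comparison within a sample. Seen from HS-38, the mirror held 6.28 ± 0.372 counts per kb for every 100000 cis counts in WT and 6.37 ± 0.229 in D4448 (SD, n = 3 each), a log2 change of 0.02. Its changes from R1, R2 and *Hba* were −0.01, −0.06 and 0.04. The log2 ratio of the downstream stretch to this mirror, which needs no scaling between samples, was higher in D4448 by 0.99 from HS-38, 0.86 from R1, 0.76 from R2 and 0.72 from *Hba*. The groups did not overlap in any of these ratios, and the exact permutation p was 0.1 each time, the smallest that 3 against 3 samples allow. The 83.2 kb interval over *Sh3pxd2b*, which precedes the stretch, changed by 1.23, 1.24, 0.96 and 0.93. The log2 ratio of the stretch to this interval differed between D4448 and WT by −0.20, −0.38 and −0.25 from HS-38, R1 and R2, with no overlap of the groups (exact permutation p = 0.1 each) and by −0.16 from *Hba* (exact permutation p = 0.2). Without D4448 replicate 1 the differences were 0.99, 0.89, 0.74 and 0.76 against the mirror and −0.23, −0.40, −0.31 and −0.13 against *Sh3pxd2b*.

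Along the stretch the rise was largest in the bins next to *Sh3pxd2b*. In bin 1, over the start of *Ubtd2* (chr11:32328174-32378173), the density from HS-38 was 12.3, 12.7 and 11.7 in the WT samples and 27.3, 31.5 and 33.6 in the D4448 samples, in counts per kb per 100000 cis counts. R1 gave 7.40, 8.54 and 8.48 in WT and 18.7, 20.3 and 19.6 in D4448. R2 gave 6.11, 7.15 and 6.16 against 14.8, 14.4 and 12.1. No D4448 sample came near the WT range in this bin. From *Hba* the samples read 7.71, 8.11 and 8.16 in WT and 17.02, 19.4 and 18.3 in D4448, again with no overlap. The log2 changes in this bin were 1.34 from HS-38, 1.27 from R1, 1.08 from R2 and 1.19 from *Hba* (adjusted p from 2.96e-32 to 2.74e-09, edgeR).

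**Figure D2:**
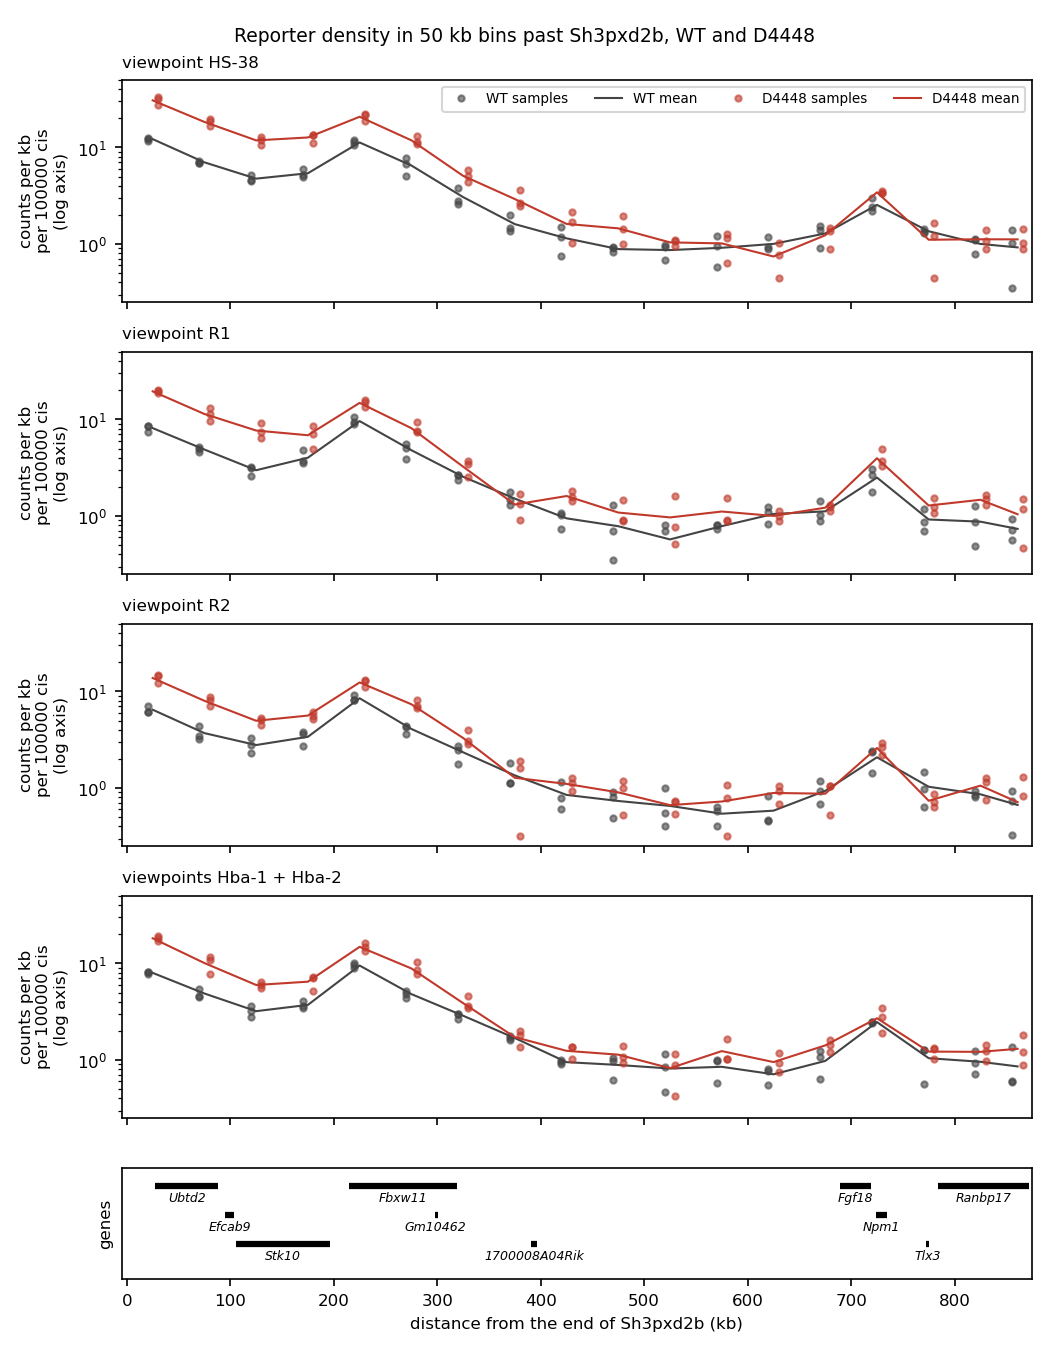
Density of contacts in 18 bins by distance from the end of *Sh3pxd2b* (kb, x axis), in counts per kb per 100000 cis counts on a log axis, one panel per viewpoint. Points are the 3 WT and 3 D4448 samples and lines are group means. A value of 0 cannot be drawn on the log axis, and WT replicate 1 in bin 11 from R1, at 0.210, lies below its lower end. The groups stand apart over the first 300 kb, both hold a local peak at 200 to 250 kb near the start of *Fbxw11*, and their samples overlap in most bins farther out. The lowest panel maps the 10 protein-coding genes.

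Bins 2 to 4, over the rest of *Ubtd2*, *Efcab9* and *Stk10*, changed in the same direction. From HS-38, bin 2 rose from 7.02 ± 0.201 to 18.4 ± 1.41, bin 3 from 4.76 ± 0.398 to 11.9 ± 1.17 and bin 4 from 5.41 ± 0.527 to 12.7 ± 1.47 (SD, n = 3 each). Their log2 changes were 1.40, 1.31 and 1.24. R1 gave 1.23, 1.34 and 0.81, and *Hba* gave 1.06, 0.90 and 0.81, all past the threshold by edgeR. From R2, bins 2 and 3 rose by 1.12 and 0.85, and bin 4 missed the threshold at 0.73 (adjusted p = 0.0294, edgeR), with its 3 D4448 samples at 5.57, 5.16 and 6.17 still above WT at 2.74, 3.78 and 3.66.

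Bins 5 and 6 cover much of *Fbxw11*. From HS-38, bin 5 measured 10.6, 11.9 and 11.3 in WT and 22.1, 21.6 and 18.8 in D4448, a log2 change of 0.88, and bin 6 changed by 0.85. The samples of each group stayed apart in both bins. From R1 the changes were 0.63 and 0.76 and from *Hba* 0.65 and 0.87, all past the threshold by edgeR. R2 passed in bin 6, at 0.85, and missed in bin 5, at 0.55 (adjusted p = 0.0489, edgeR). Bin 7, at the 3′ end of *Fbxw11*, missed from HS-38, at 0.75 (adjusted p = 0.0130, edgeR) with WT at 2.61, 3.77 and 2.82 and D4448 at 4.35, 5.86 and 5.06.

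Of the 18 bins, 6 were higher in D4448 from HS-38, 6 from R1, 4 from R2 and 6 from *Hba*, and none was lower. Among all bins of chromosome 11 tested from the same viewpoints, 0.479%, 0.483%, 0.33% and 0.357% were higher at the same threshold. Counted as an unbroken run of changed bins from the end of *Sh3pxd2b*, the change reached 300 kb from HS-38, R1 and *Hba*, and 150 kb from R2. No bin beyond 300 kb passed from any viewpoint, and none did past the end of the stretch. Counts were also lower there: from HS-38, bins 1 to 6 held 1352 to 3639 counts each and bins 7 to 18 held 79 to 715. Bin 8 from HS-38 changed by 0.82 without overlap of the samples (adjusted p = 0.0723, edgeR). Of the 12 bins from bin 7 on, 9, 10, 10 and 12 changed upward from HS-38, R1, R2 and *Hba*. The run thus marks where the calls end, and whether the change itself ends there was not tested. The next Mb changed by 0.26 from HS-38, 0.11 from R1, 0.31 from R2 and 0.35 from *Hba*, the last with an adjusted p of 0.0191 by edgeR.

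**Figure D3:**
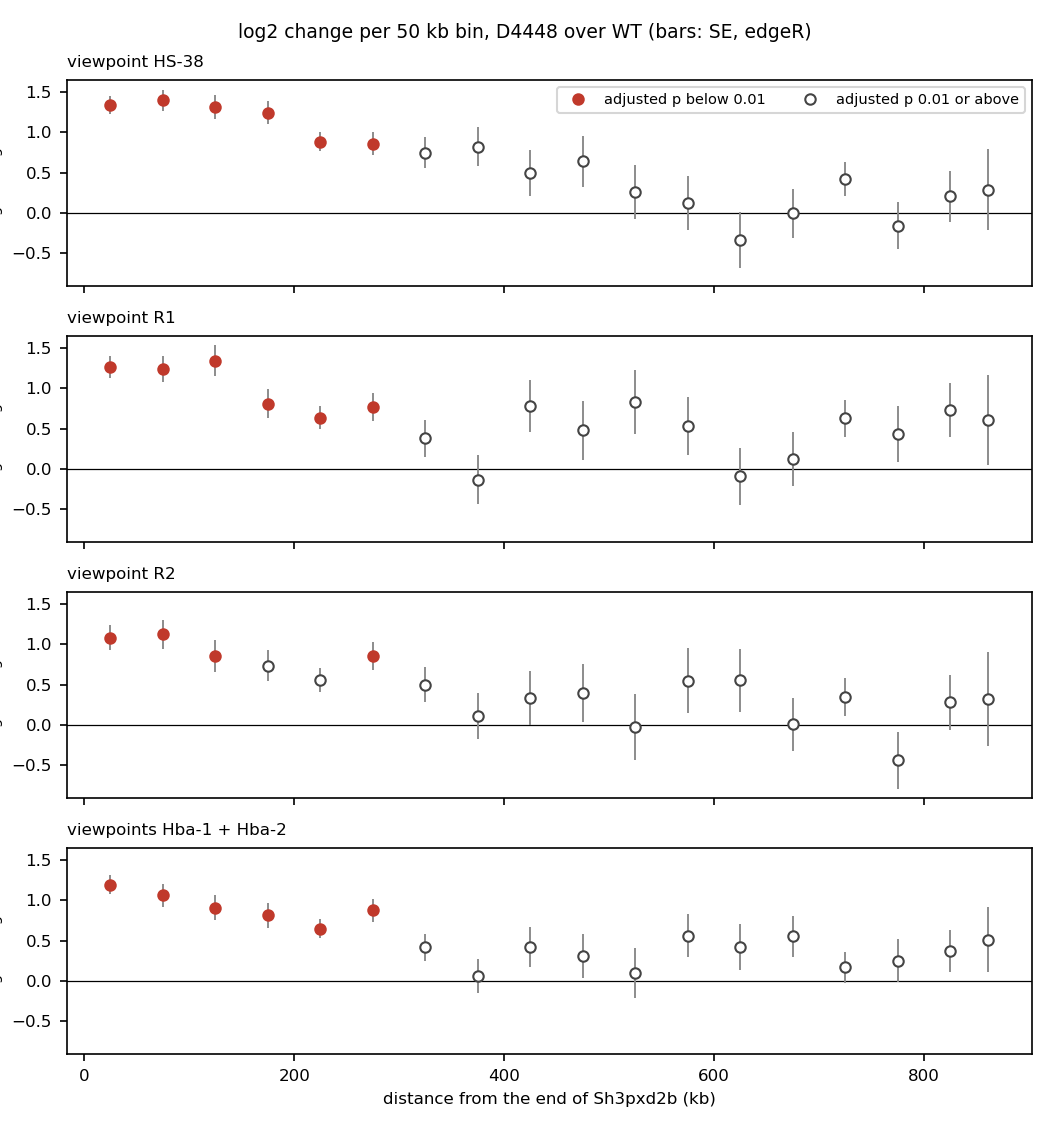
log2 change of D4448 over WT in each 50 kb bin (y axis) by distance from the end of *Sh3pxd2b* (kb, x axis), one panel per viewpoint, with standard errors from edgeR and filled points where the adjusted p is below 0.01. The first 6 bins lie between 0.55 and 1.40 over the viewpoints, and from bin 7 on they lie between −0.44 and 0.83.

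That distance depends on the width of the bin and on single samples. In bins of 20 kb the unbroken run ended at 300 kb from HS-38, 80 kb from R1, 80 kb from R2 and 120 kb from *Hba*, and in bins of 10 kb at 90 kb from HS-38, with no run from the others. With 1 sample left out it stayed at 300 to 350 kb from HS-38. It fell to 150 kb from R1 without WT replicate 1 or 2 or D4448 replicate 2 or 3, and to 100 to 150 kb from *Hba* without any single sample other than D4448 replicate 1. From R2 it lay between 100 and 150 kb, bin 3 losing its call without any single sample other than D4448 replicate 1. With TMM scaling, which shifted the median log2 change of all bins by −0.13 from HS-38 and by −0.21, −0.19 and −0.20 from R1, R2 and *Hba*, the run was 200 kb, 150 kb, 0 kb and 0 kb. Measured against the median of all bins under the cis total, which was 0.08, 0.14, 0.14 and 0.14, the first 6 bins changed by 0.78 to 1.32 from HS-38, 0.50 to 1.20 from R1, 0.41 to 0.98 from R2 and 0.51 to 1.05 from *Hba*. With TMM these 6 bins still changed, relative to their own median, by at least 0.74, 0.48, 0.38 and 0.49.

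Without any test, the bins whose 3 D4448 samples all lay above the 3 WT samples numbered 10 from HS-38, 10 from R1, 7 from R2 and 9 from *Hba*. The share of all bins of chromosome 11 with that order was 6.23%, 7.07%, 6.71% and 7.99%. The unbroken run of such bins was 400 kb, 300 kb, 350 kb and 350 kb. In the opposite order, with D4448 below WT, there was 0 of 18 from each viewpoint, where the shares of all bins were 5.69%, 4.23%, 3.47% and 4.06%.

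Divided into 3 stretches of equal length, a division made after the bins had been seen, the proximal one (0 to 290.6 kb) carried most of the change. From HS-38 it rose by 1.18 (adjusted p = 7.15e-22, edgeR), from 7.99 ± 0.296 to 18.1 ± 0.432 (SD, n = 3 each). The middle one (290.6 to 581.2 kb) rose by 0.63 (adjusted p = 4.13e-05, edgeR), from 1.52 ± 0.153 to 2.38 ± 0.0816. The distal one (581.2 to 871.8 kb), over *Fgf18*, *Npm1* and *Tlx3*, measured 1.37 ± 0.151 in WT and 1.48 ± 0.226 in D4448, a change of 0.15 (adjusted p = 0.37, edgeR). The proximal stretch also rose by 1.00 from R1, 0.85 from R2 and 0.92 from *Hba*. Their middle stretches changed by 0.42, 0.36 and 0.38 and their distal ones by 0.45, 0.19 and 0.35, none past the threshold. From *Hba* the middle stretch did pass with TMM scaling (0.34, adjusted p = 0.00938, edgeR), and without WT replicate 1 both the middle and the distal one passed, at 0.26 and 0.25. Within each sample, the log2 ratio of proximal to distal density was higher in D4448 by 1.08, 0.51, 0.67 and 0.57 from the 4 viewpoints, with no overlap between the groups (exact permutation p = 0.1 each). The same ratio from *Hba* was also higher without overlap in Dtheta2, by 0.30, and in Dt1t2, by 0.42 (exact permutation p = 0.1 each), and overlapped WT in Dtheta1, with a difference of −0.10. Without D4448 replicate 1 the proximal, middle and distal changes were 1.20, 0.61 and 0.23 from HS-38, 1.05, 0.54 and 0.38 from R1, 0.87, 0.47 and 0.28 from R2 and 0.98, 0.37 and 0.43 from *Hba*.

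The genes called were those nearest to *Sh3pxd2b*, from *Ubtd2* to *Gm10462*, but their changes did not fall in strict order of distance. From HS-38 *Efcab9* changed by 1.13 and the farther *Stk10* by 1.26, and from R1 *Ubtd2* changed by 1.21 and *Efcab9* by 1.36. Gene bodies with 5 kb on each side were tested over all protein-coding genes of chromosome 11, of which 0.574% passed from HS-38, 0.468% from R1, 0.35% from R2 and 0.431% from *Hba*. Of the 10 genes of the stretch, 4 rose from HS-38, 4 from R1, 3 from R2 and 5 from *Hba*, and none fell. With the flanks, *Efcab9* shares fragments with both *Ubtd2* and *Stk10*, and *Gm10462* lies within *Fbxw11*, so these calls are not independent of each other. The median log2 change of the 10 was 0.68, 0.68, 0.61 and 0.74.

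Contacts with *Ubtd2* rose from all 4 viewpoints. From HS-38 its density was 9.96, 9.81 and 9.61 in WT and 24.1, 25.7 and 27.5 in D4448, a log2 change of 1.40 (standard error 0.110, adjusted p = 9.55e-34, edgeR). The WT samples lay in a narrow band and every D4448 sample was well above it. The changes from R1, R2 and *Hba* were 1.21, 1.12 and 1.12. *Efcab9* rose from 5.17, 4.81 and 5.02 to 10.6, 10.8 and 11.3 from HS-38, a change of 1.13. R1 and *Hba* also passed for it, at 1.36 and 0.96, whereas R2 gave 0.88 (adjusted p = 0.237, edgeR) although its D4448 samples all lay above WT.

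*Stk10*, over which 6 of the 8 printed CTCF cores lie, measured 4.88, 4.92 and 5.62 in WT and 12.01, 12.7 and 12.2 in D4448 from HS-38. The change of 1.26 was followed by 1.05 from R1, 0.79 from R2 and 0.84 from *Hba*, all past the threshold by edgeR. *Fbxw11* had a higher WT density from HS-38 than *Stk10* and *Efcab9*, though below that of *Ubtd2*. It measured 7.55, 8.54 and 7.34 in WT and rose to 15.4, 14.4 and 13.4. Its changes of 0.88, 0.67, 0.63 and 0.71 were the smallest of the genes called from at least 3 viewpoints. *Gm10462*, which lies within the *Fbxw11* body, passed only from *Hba*, with WT at 2.41, 2.78 and 4.98 and D4448 at 11.02, 6.04 and 6.28 (log2 change 1.13, adjusted p = 0.00336, edgeR). D4448 replicate 1 was the highest sample there, and without it the change was 0.86 and did not pass.

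From HS-38 the 4 calls held whichever sample was left out. From the other viewpoints *Ubtd2* kept its call in every case, as did *Stk10* from R1 and *Hba* and *Fbxw11* from *Hba*, and the remaining calls depended on single samples. *Gm10462* from *Hba* also lost its call without WT replicate 1 or 2 or D4448 replicate 2 or 3, and *Efcab9* from *Hba* without any one sample other than D4448 replicate 1. From R1, *Efcab9* lost its call without WT replicate 1 or 3 or D4448 replicate 1 or 3, and *Fbxw11* without WT replicate 1 or 2 or D4448 replicate 3. From R2, *Stk10* lost its call without WT replicate 1 or D4448 replicate 3, and *Fbxw11* without WT replicate 1 or 3 or D4448 replicate 2. The changes of these genes over all leave-outs stayed positive, from 0.54 for *Fbxw11* from R2 to 1.53 for *Efcab9* from R1.

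**Figure D4:**
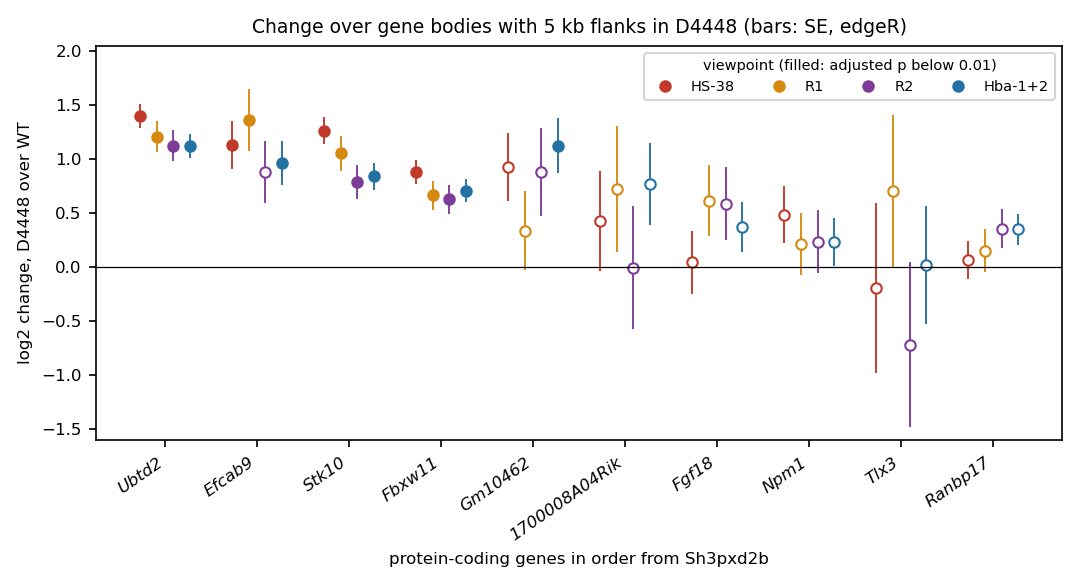
log2 change of D4448 over WT (y axis, standard errors from edgeR, filled points where the adjusted p is below 0.01) for the 10 protein-coding genes in chromosomal order (x axis), by viewpoint. *Ubtd2* to *Fbxw11* lie between 0.63 and 1.40 from every viewpoint. *1700008A04Rik* to *Ranbp17* scatter between −0.72 and 0.77, with standard errors from 0.143 for *Ranbp17* from *Hba* to 0.788 for *Tlx3* from HS-38.

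The 5 genes past *Fbxw11* were called from no viewpoint. *1700008A04Rik* changed by 0.43 from HS-38, where WT read 1.41, 1.32 and 1.23 and D4448 1.66, 1.75 and 1.87, without overlap but at low counts. *Fgf18* changed by 0.04, with D4448 replicate 1 at 0.666 below WT and the other D4448 samples at 2.03 and 1.92 above it. For *Npm1* the WT samples stood at 3.55, 4.38 and 3.05 and the D4448 samples at 6.37, 4.91 and 4.61, a change of 0.49 (adjusted p = 0.856, edgeR). *Npm1* was thus the highest of the distal genes in both groups. *Tlx3* and *Ranbp17* changed by −0.19 and 0.07 from HS-38, and from the other viewpoints *Tlx3* ranged from −0.72 to 0.70. The standard errors of the *Tlx3* and *Ranbp17* changes from HS-38 were 0.788 and 0.176.

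Single fragments gave few calls, and the counts were spread over many fragments. From HS-38, 551 of the 2012 fragments had at least 10 counts and 1 was called, where 0.673% of all fragments tested on chromosome 11 were. It lies within *Ubtd2* (chr11:32360942-32361301) and held 0, 3 and 0 counts in WT and 4, 15 and 17 in D4448 (adjusted p = 0.00343, edgeR), a ratio per cis count of 16.7 with an exact counting interval of 5.26 to 84.6 at 95%. It reached the minimum of 10 counts, which is summed over both groups, only through the D4448 samples. Its ratio and the order of its samples, all D4448 above all WT, are therefore no separate support for a change. By DESeq2, with a replicate block, or with a minimum of 30 counts or of 1, no fragment passed from HS-38, where 104 had an unadjusted p under 0.05. No fragment passed by edgeR from R1 (0 of 345, with 48 at an unadjusted p under 0.05), R2 (0 of 323, with 29) or *Hba* (0 of 692, with 73), beside 0%, 0% and 0.0885% of all fragments from those viewpoints. At an unadjusted p under 0.05 the fragments of the stretch made up 18.9% of those tested from HS-38, 13.9% from R1, 8.98% from R2 and 10.5% from *Hba*, against 14%, 9.99%, 7.29% and 8.37% of all fragments tested. The fragment over the *Ubtd2* start (chr11:32354549-32355949), which holds the first CTCF core printed above, had 4, 4 and 5 counts in WT and 3, 14 and 17 in D4448 from HS-38. Scaled to depth, its density went from 6.32 ± 1.16 to 20.7 ± 6.51 (SD, n = 3 each), a change of 1.75 that did not pass (adjusted p = 0.18, edgeR).

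The profile was not smooth in WT. From HS-38 the density was 4.76 ± 0.398 in bin 3 and 11.3 ± 0.660 in bin 5, and in bins of 10 kb the local maximum was at 210 to 220 kb, which holds the start of *Fbxw11* at 214.6 kb, with 16.5 ± 0.616 in WT and 30.2 ± 6.23 in D4448 (SD, n = 3 each). The bin at 10 to 20 kb, before *Ubtd2*, held 17.5 ± 1.46 and 39.4 ± 6.54. From *Hba* the bin at 210 to 220 kb measured 17.1 ± 0.535 and 25.7 ± 3.04. A peak of contacts at *Fbxw11* was therefore present with HS+44 and HS+48 intact. Relative to the mean of bins 3 and 4 of the same sample, bin 5 stood on the log2 scale at 1.15, 1.29 and 1.01 in WT and 0.88, 0.76 and 0.63 in D4448 from HS-38. R1 gave 1.52, 1.47 and 1.40 in WT and 0.94, 1.06 and 1.09 in D4448. R2 overlapped, at 1.68, 1.49 and 1.24 against 1.14, 1.38 and 1.15. The *Hba* samples read 1.51, 1.39 and 1.48 in WT and 1.34, 1.30 and 1.14 in D4448. The peak thus stood less far above its surroundings in D4448 from HS-38, R1 and *Hba*, a description that was not tested. A lower rise lay at 700 to 750 kb, over *Fgf18* and *Npm1*, with 2.54 ± 0.427 in WT and 3.43 ± 0.106 in D4448 from HS-38.

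The viewpoints were compared through the log2 ratio of the stretch's density from a pair of them in the same sample, over 6 pairs. Between D4448 and WT the ratio of HS-38 to R2 differed by 0.31, of HS-38 to *Hba* by 0.25 and of HS-38 to R1 by 0.16. For R1 it differed by 0.15 against R2 and by 0.09 against *Hba*, and for R2 against *Hba* by −0.06. The groups did not overlap for HS-38 against R2, HS-38 against *Hba* and R1 against R2 (exact permutation p = 0.1 each, 0.2 after Benjamini-Hochberg adjustment over the pairs). Without D4448 replicate 1 the 6 differences were, in the order given, 0.29, 0.21, 0.13, 0.15, 0.08 and −0.07. These tests cannot pass at this sample number, and a p that misses the threshold does not show that the viewpoints changed alike.

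The θ deletions were read from the *Hba* promoters alone, at lower depth, and share their 3 WT samples. In those WT samples the stretch held 2.10%, 2.32% and 2.29% of the cis counts. Dtheta1 samples held 2.46%, 2.32% and 2.12%, on only 42 to 131 counts each. Dtheta2 samples held 2.39%, 2.78% and 4.15%. All Dtheta2 samples lay above WT, with replicate 3 far above the other two. Dt1t2 samples held 2.28%, 2.16% and 2.14%, within the WT range. The log2 changes were 0.06 for Dtheta1 (standard error 0.0948, adjusted p = 0.805, edgeR), 0.47 for Dtheta2 (standard error 0.209, adjusted p = 0.0994, edgeR) and −0.03 for Dt1t2 (standard error 0.0712, adjusted p = 0.885, edgeR). Without replicate 3 the Dtheta2 change was 0.21.

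**Figure D5:**
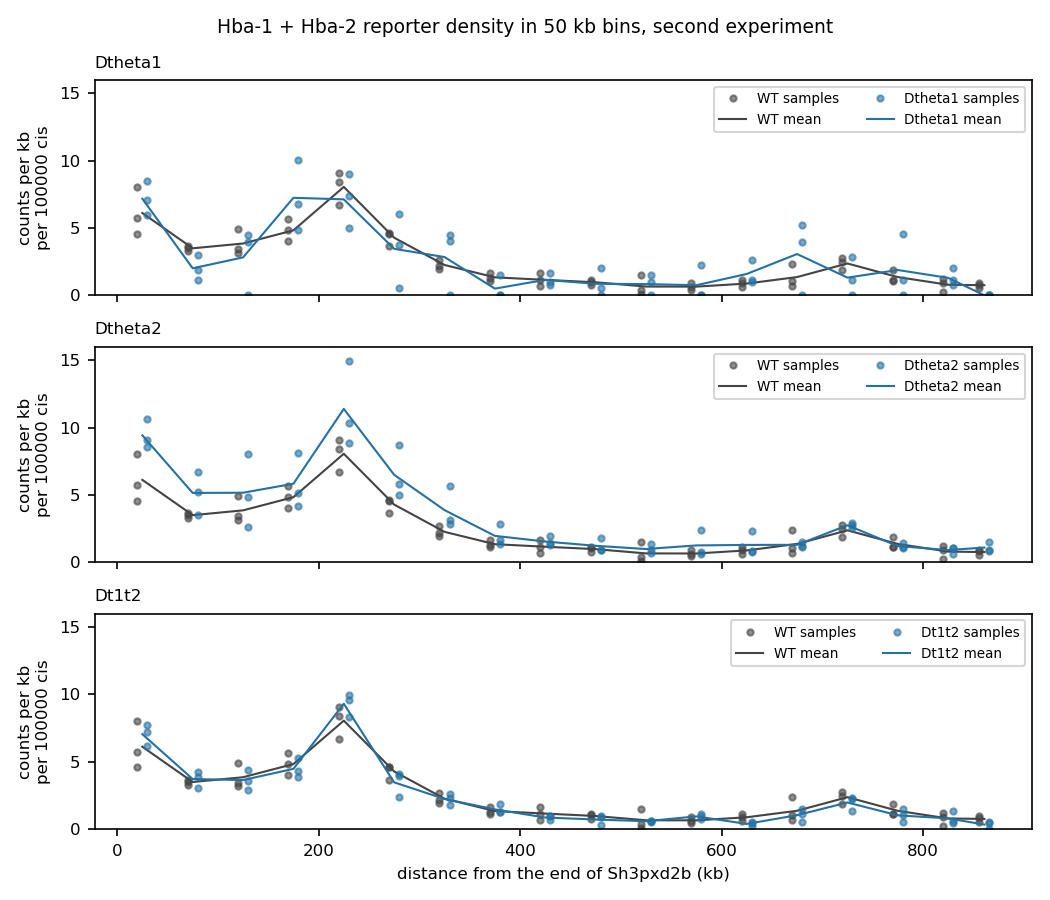
Density of contacts from the summed *Hba* promoters in experiment 2 (counts per kb per 100000 cis counts, y axis) by distance from the end of *Sh3pxd2b* (kb, x axis), one panel per deletion beside the same WT samples. Points are samples (3 per group) and lines are group means. The Dtheta2 mean runs above WT in the first 6 bins, by 0.26 to 0.60 on the log2 scale, and no bin of any deletion passed the threshold.

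Of the 18 bins, 0 passed by edgeR in Dtheta1, 0 in Dtheta2 and 0 in Dt1t2, and 1, 4 and 0 had an unadjusted p under 0.05, as did 6.89%, 4.64% and 3.70% of all bins. Over all bins of chromosome 11, 0.125%, 0% and 0% passed. DESeq2 likewise called 0 bins of the stretch in each. In bin 1 the WT samples spread from 4.59 to 8.02, Dtheta1 held 6.01, 8.48 and 7.06, and Dt1t2 held 7.75, 6.17 and 7.23, so both overlapped WT. Dtheta2 held 9.10, 8.55 and 10.6, above every WT sample, with a change of 0.60. Bins 2 to 4 changed by 0.54, 0.41 and 0.26 in Dtheta2, by 0.10, −0.06 and −0.09 in Dt1t2, and by −0.90, −0.20 and 0.50 in Dtheta1, where single samples held as little as 0. Contacts with *Ubtd2* in Dtheta2 read 6.14, 6.99 and 9.27 against 3.74, 5.51 and 4.32 in WT, a change of 0.70 that did not pass (adjusted p = 0.541, edgeR).

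Whether the D4448 change differed from these was tested as an interaction in a joint edgeR fit on the *Hba* counts. The D4448 change exceeded the Dt1t2 change by 0.79 (standard error 0.199, adjusted p = 0.00411, edgeR). It exceeded the Dtheta1 change by 0.71 (adjusted p = 0.0227, edgeR) and the Dtheta2 change by 0.31 (adjusted p = 0.432, edgeR), neither past the threshold. Without Dtheta2 replicate 3 the difference from Dtheta2 was 0.56 (adjusted p = 0.00118, edgeR). The experiments differ in depth and each has its own WT samples, and the test compares changes alone. Each deletion was run in a single experiment, so experiment and deletion cannot be told apart, either in the raw levels or in a difference between the changes.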

How the data were processed

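The authors trimmed, merged, DpnII-digested in silico and aligned the reads to mm9, removed duplicates and deposited, for each viewpoint, the raw count of unique ligation events on every DpnII fragment, without normalisation. The submitters' notes name Trim Galore and Bowtie. Deposited fragments were placed on a DpnII digest of NCBIM37, of which 0 of 151143 failed. The deposited combined *Hba* counts equalled the sum of both promoters. Counts within 1000 bp of the viewpoint in use were left out. In experiment 1 and the joint fit, so were counts within 1000 bp of the CTCF sites HS-38 and HS-39 and those on the other viewpoint fragments. The cis total is what remained on chromosome 11, and densities are counts per kb per 100000 cis counts.

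Features with at least 10 counts were tested with edgeR 4.0.16 in R 4.3.3 (quasi-likelihood F test, cis total as library size, Benjamini-Hochberg adjustment over all features of chromosome 11, threshold 0.01), each deletion against the WT of its own experiment. DESeq2 1.42.0 was an alternative. Exact permutation tests, two-sided, were used for ratios within samples. Figures were drawn with matplotlib 3.10.9. The models were tested on simulated data. The members and gene lists were chosen with earlier results of these data known. The genes named are all protein-coding genes of the stretch. The bins named are the first 4 and any others past the threshold. At most 3 called fragments per comparison and the one over the *Ubtd2* start are named, and the bins and genes beside the threshold were added after their values were seen.

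The alternatives were TMM factors, library sizes from within 1 Mb or beyond 2 Mb, an exclusion zone wider by 5 kb, each fragment counted once, other bin widths and edges, minimum counts, a threshold of 0.05, gene bodies alone, a replicate block, single *Hba* promoters and single samples left out. A division into 3 equal stretches and counts of separated bins were added after seeing the data. Replicates were not stated to be separate animals in the labels, so p-values measure the spread between samples. PCR reads carry no molecular identifiers, and counting intervals cover counting error only.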

Additional observations from a re-analysis of the deposited data

Results flagged for a closer look

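The change over the stretch was larger in D4448 than in Dt1t2, by 0.79 in log2 units (SE 0.199, adjusted p = 0.00411, interaction term in edgeR). The deletions were run in different experiments, so deletion and experiment cannot be told apart in this difference. From the *Hba* promoters the stretch rose from 2.44% ± 0.209 to 4.14% ± 0.293 of cis counts in D4448 and measured 2.24% ± 0.119 and 2.19% ± 0.0736 in WT and Dt1t2 (SD, n = 3 each). All 3 D4448 samples lay above their WT, and the Dt1t2 samples overlapped theirs. With 1 of the 12 samples left out in turn the difference ran from 0.73 to 0.85, and it missed the threshold without WT replicate 1 of experiment 1 (0.73, adjusted p = 0.0153), D4448 replicate 2 (0.76, adjusted p = 0.0129), WT replicate 2 of experiment 2 (0.77, adjusted p = 0.0104), Dt1t2 replicate 2 (0.78, adjusted p = 0.0110) or Dt1t2 replicate 3 (0.78, adjusted p = 0.0124), all by edgeR.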

How the results depend on the processing

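The change over the stretch in D4448 kept its direction from all 4 viewpoints under every alternative run, between 0.33 and 1.06. With 1 sample left out it was 0.98 to 1.05 from HS-38, 0.77 to 0.92 from R1, 0.60 to 0.78 from R2 and 0.70 to 0.82 from *Hba*, past the threshold each time. How many bins and genes passed, and how far the run of bins reached, moved more. The causes were not tested.

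With DESeq2, no single fragment passed from HS-38 (0 in place of 1), bins numbered 3 from R1 and 2 from R2, the reach was 150 kb from R1 and from *Hba*, and genes numbered 2, 1 and 3 from R1, R2 and *Hba*. *Fgf18* from HS-38 was −0.03, *Tlx3* from *Hba* −0.09 and the stretch in Dtheta1 −0.06. With TMM the reach from HS-38 was 200 kb. R1 kept 3 bins, 150 kb and 1 gene, and R2 and *Hba* 0 bins, 0 kb and 1 gene each. *Fgf18* and *Ranbp17* from HS-38 were −0.01 and 0, and *Tlx3* from *Hba* was −0.1. With counts beyond 2 Mb as library size, the stretch changed by 0.55 from R2 (adjusted p = 0.0110, edgeR) and 0.62 from *Hba* (adjusted p = 0.0105, edgeR). R1 gave 3 bins, 150 kb and 2 genes, R2 2 bins and 1 gene, and *Hba* 2 bins, 100 kb and 2 genes. *Fgf18* from HS-38 was −0.01, *Tlx3* from *Hba* −0.09, and the stretch −0.16 in Dtheta1 and 0.01 in Dt1t2.

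With each fragment counted once, no viewpoint had a bin past the threshold (0 bins, 0 kb), and the stretch changed by 0.46, 0.37 and 0.33 from HS-38, R2 and *Hba* without passing. Its ratio to the upstream mirror changed by 0.27, 0.26, 0.24 and 0.13 from the 4 viewpoints and by −0.46 in Dtheta1, and its ratio to *Sh3pxd2b* by −0.20 from R1 and 0.13 in Dtheta2. The stretch changed by −0.35 in Dtheta1. The differences between viewpoints were 0.07 for HS-38 and R2, 0.12 for HS-38 and *Hba*, 0 for R1 and R2 and 0.05 for R2 and *Hba*.

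In bins of 20 kb, 15 passed from HS-38 and 12 from *Hba*, and the reach was 80 kb from R1 and R2 and 120 kb from *Hba*. In bins of 10 kb, 20 passed from HS-38, 10 from R1 and 10 from *Hba*, and the reach was 90 kb from HS-38 and 0 from the others. Shifted bin edges gave 175 kb from R1. A minimum of 30 counts or of 1 left 0 fragments from HS-38. At a threshold of 0.05, 12 fragments passed from HS-38 and 2 from *Hba*, and the reach from R2 was 300 kb. Over gene bodies alone 3 genes passed from *Hba*, *Fgf18* from HS-38 was −0.02, *Tlx3* from R1 −0.4, *1700008A04Rik* from R2 0.78 and *Npm1* from R2 −0.39.

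Samples of the same replicate number had weak correlations over bins, from −0.179 to 0.148. The best match of a WT sample bore its own number for 2 of 3 samples in D4448 from HS-38, R2 and *Hba* and in Dtheta2. It did so for 1 in D4448 from R1 and for 0 in Dtheta1 and Dt1t2. These values cannot decide whether samples of the same number were handled together. With the replicate block the stretch changed by 1.01, 0.85, 0.69 and 0.76 from HS-38, R1, R2 and *Hba*, 0 fragments passed from HS-38, the reach from R2 was 300 kb and *Fgf18* from HS-38 was −0.05.

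With single samples left out, fragments from HS-38 numbered 0 to 2 and from *Hba* 0 to 3. Bins numbered 3 to 6 from R1, 2 to 4 from R2 and 2 to 6 from *Hba*, genes 2 to 4, 1 to 3 and 3 to 4, and the reach was 150 to 300 kb, 100 to 150 kb and 100 to 300 kb. From HS-38, *Ranbp17* ranged from −0.05 to 0.19, *Tlx3* from −0.71 to 0.14 and *Fgf18* from −0.15 to 0.28. *Ranbp17* from R1 ranged from 0 to 0.34, *1700008A04Rik* from R2 from −0.27 to 0.28 and *Tlx3* from *Hba* from −0.37 to 0.47. The stretch ranged from 0 to 0.10 in Dtheta1 and from −0.07 to 0 in Dt1t2, and the excess of D4448 over Dt1t2 from 0.73 to 0.85 and over Dtheta2 from 0.16 to 0.56. Dtheta1 held at most 131 counts in the stretch per sample, and the part of depth in the missing calls was not tested.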

Other observations

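Viewpoints on other chromosomes, at the β-globin and mitoferrin genes, gave hits on the stretch in which random ligation and contacts between chromosomes are not separated. In experiment 1, 98 of 21510 hits on chromosome 11 fell in it in WT (0.456%, 95% Wilson interval 0.374% to 0.555%) and 75 of 15251 in D4448 (0.492%, 0.393% to 0.616%), intervals that overlap and cover counting error only. D4448 replicate 1 held 24 of 3265 (0.735%), on 15 fragments, against 0.432% and 0.420% in replicates 2 and 3. In experiment 2, the values were 12 of 3890 in WT, 6 of 912 in Dtheta1, 28 of 6544 in Dtheta2 and 18 of 4235 in Dt1t2. All 6 Dtheta1 hits came from replicate 2, on 2 fragments, and replicates 1 and 3 held 0 of 402 and 0 of 164. Within the stretch, 71.8% to 79.3% of fragments hit from either *Hba* promoter in experiment 1 were hit from both, and 17.8% to 47.9% for R1 and R2.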
